A study of Mus musculus with 15 samples.

Results

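Described here are regions of the mouse genome with a called H3K4me1 peak in both kinds of expanded potential stem cells (EPSCs) and none in embryonic stem cells (ESCs). They overlapped no H3K27ac peak in any of the 3 cell states. They were selected on measured values, namely the positions of the peaks in 6 deposited lists. Overlapping or touching H3K4me1 peaks of the 3 states were merged into 124744 union regions, and a region was kept when it held a D-EPSC peak and an L-EPSC peak, held no ESC peak and met no H3K27ac peak of any list. This left 7770 regions, called members below, or 6.23% of all H3K4me1 regions. They were 85.7% of the 9068 regions with H3K4me1 in both EPSCs and not in ESCs, and the other 1298 overlapped H3K27ac in at least 1 state. These 1298 are called gained with acetylation below, where gained refers to H3K4me1 alone. Their H3K27ac was of D-EPSCs alone in 331, L-EPSCs alone in 113 and both EPSCs in 188. It was of ESCs alone in 256, all 3 states in 256, ESCs and D-EPSCs in 111 and ESCs and L-EPSCs in 43. No H3K27ac overlapped 93.15% of the regions with H3K4me1 in D-EPSCs alone, 91.09% in L-EPSCs alone, 81.25% in ESCs alone and 43.96% in all 3 states. The EPSC H3K27ac lists were shorter than the ESC list (32782 peaks in D-EPSCs, 26966 in L-EPSCs, 64342 in ESCs), and acetylation missed in the shorter lists was not tested. Whether ESCs had H3K4me1 at members without a called peak was not tested either, so gained refers to called peaks.

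The study profiled both histone marks by ChIP-seq in 3 pluripotent states of mouse cells of strain 129SV, in 15 samples, 2 for each mark in each state and an input for every state. The ESCs were of the J1 line and were grown in medium with 15% fetal bovine serum, LIF at 1000 units/mL, CHIR99021 at 3 µM and PD0325901 at 1 µM. D-EPSCs were grown without serum in N2B27 medium with 5% KSR, LIF at 1000 units/mL, CHIR99021 at 3 µM, dimethindene maleate at 2 µM and minocycline hydrochloride at 2 µM. L-EPSCs were grown in DMEM/F12 with 20% KSR, LIF at 1000 units/mL, CHIR99021 at 3 µM, PD0325901 at 1 µM, A-419259 at 0.3 µM, XAV939 at 5 µM, JNK inhibitor VIII at 4 µM and SB203580 at 10 µM. All 3 media thus held LIF and CHIR99021, and only the ESC medium held fetal bovine serum. Both EPSC states were converted from ESCs, so they stand for a change of culture in a single strain, and the effects of single medium components cannot be told apart. ESCs and L-EPSCs were kept on fibroblast feeder cells or on gelatin, and per the methods of the study the EPSCs had been without feeders for several passages when they were harvested for ChIP. Markers of fibroblasts are given with the gene lists below.

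H3K4me1, a single methyl group on lysine 4 of histone H3, is laid down at enhancers and beside the start sites of genes. H3K27ac marks those enhancers and promoters that are active, so an enhancer with H3K4me1 and without H3K27ac is commonly called primed or poised. Start sites rich in CpG dinucleotides (CpG islands) that are silent in pluripotent cells often carry methylated histones without acetylation, many of them at genes of later development.

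The sequences at the centre of 8 members show how unlike each other the members were. They come from the widest members, with a start site of a protein-coding gene within 1 kb in the first 4 and further away in the last 4. Each is the 300 central bases of the member on the plus strand of mm9 (NCBIM37), and capitals mark CpG dinucleotides.
Evc/Evc2, outside the gene bodies, chr5:37728711-37729010: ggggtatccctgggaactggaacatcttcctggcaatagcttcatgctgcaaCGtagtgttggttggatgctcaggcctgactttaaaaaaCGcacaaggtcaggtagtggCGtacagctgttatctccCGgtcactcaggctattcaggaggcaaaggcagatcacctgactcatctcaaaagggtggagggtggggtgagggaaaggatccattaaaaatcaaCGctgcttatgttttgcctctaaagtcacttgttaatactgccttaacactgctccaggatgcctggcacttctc
Emx2, intron, chr19:59534317-59534616: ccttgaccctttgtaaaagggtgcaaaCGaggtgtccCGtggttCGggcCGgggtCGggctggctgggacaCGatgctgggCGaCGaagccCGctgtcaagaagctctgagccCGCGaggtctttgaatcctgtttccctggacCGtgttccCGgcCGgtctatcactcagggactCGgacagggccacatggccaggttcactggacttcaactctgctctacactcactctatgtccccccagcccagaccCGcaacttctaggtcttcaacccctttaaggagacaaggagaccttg
Nkx2-1, exon, chr12:57635598-57635897: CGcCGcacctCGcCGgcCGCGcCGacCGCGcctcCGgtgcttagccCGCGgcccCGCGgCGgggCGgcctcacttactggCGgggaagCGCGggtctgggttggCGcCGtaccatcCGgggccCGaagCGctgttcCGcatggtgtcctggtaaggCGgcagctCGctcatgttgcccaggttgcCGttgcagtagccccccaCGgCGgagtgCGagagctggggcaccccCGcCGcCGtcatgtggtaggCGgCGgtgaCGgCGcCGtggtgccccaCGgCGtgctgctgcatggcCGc
Itpripl2, exon, chr7:125634486-125634785: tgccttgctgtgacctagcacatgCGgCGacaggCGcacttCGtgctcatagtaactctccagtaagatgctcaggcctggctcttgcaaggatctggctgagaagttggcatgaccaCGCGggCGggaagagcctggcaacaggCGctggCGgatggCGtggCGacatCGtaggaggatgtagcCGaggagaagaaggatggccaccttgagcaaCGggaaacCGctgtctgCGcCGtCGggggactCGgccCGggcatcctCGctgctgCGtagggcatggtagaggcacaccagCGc
Prps2, intron, chrX:163817569-163817868: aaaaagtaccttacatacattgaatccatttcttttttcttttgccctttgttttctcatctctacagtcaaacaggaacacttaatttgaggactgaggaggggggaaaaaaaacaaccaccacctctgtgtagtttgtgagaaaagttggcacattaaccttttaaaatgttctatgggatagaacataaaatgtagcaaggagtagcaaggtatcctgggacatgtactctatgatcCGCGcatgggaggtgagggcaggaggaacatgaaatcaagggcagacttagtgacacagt
near Dmrtb1, outside genes, chr4:107359712-107360011: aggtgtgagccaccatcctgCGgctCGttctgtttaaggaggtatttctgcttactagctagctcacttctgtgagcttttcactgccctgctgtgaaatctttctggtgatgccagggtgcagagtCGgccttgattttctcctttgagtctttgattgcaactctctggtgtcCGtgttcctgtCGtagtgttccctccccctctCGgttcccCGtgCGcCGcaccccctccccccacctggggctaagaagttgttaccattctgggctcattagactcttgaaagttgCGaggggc
Trpm3, intron, chr19:23036134-23036433: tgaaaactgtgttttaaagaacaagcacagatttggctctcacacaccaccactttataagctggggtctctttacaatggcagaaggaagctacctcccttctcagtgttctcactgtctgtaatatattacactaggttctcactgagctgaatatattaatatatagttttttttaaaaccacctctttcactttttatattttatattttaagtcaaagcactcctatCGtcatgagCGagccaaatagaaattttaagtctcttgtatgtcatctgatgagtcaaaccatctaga
Cacna1b, exon, chr2:24463175-24463474: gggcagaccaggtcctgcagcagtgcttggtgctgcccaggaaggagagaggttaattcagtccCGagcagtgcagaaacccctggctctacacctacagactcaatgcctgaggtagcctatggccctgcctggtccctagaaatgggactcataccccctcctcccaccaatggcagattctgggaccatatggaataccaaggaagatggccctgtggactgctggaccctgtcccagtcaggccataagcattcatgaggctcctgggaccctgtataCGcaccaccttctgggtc

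The Nkx2-1 window held 42 CpG and was 75% G or C, and the Itpripl2 and Emx2 windows held 23 and 16 CpG. The Evc/Evc2 window, although its member spans both start sites, held 5. Away from start sites the windows of Prps2, Trpm3 and Cacna1b held 2 CpG each, and the window near Dmrtb1 held 10.

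Members were narrow regions with a median width of 855 bp (25th to 75th percentile 623 to 1181 bp) and a range of 233 to 4972 bp. Together they covered 7.50 Mb. The widest D-EPSC peak in a member had a median of 654 bp and the widest L-EPSC peak one of 660 bp, compared with 1134 bp and 1065 bp over all H3K4me1 peaks of the D-EPSC and L-EPSC lists. The rule itself favours narrow regions, because a wider region meets an ESC H3K4me1 peak or an H3K27ac peak more easily. The D-EPSC peak was the wider in 50.3% of the members, and in 78.6% the wider peak was no more than 2 times as wide as the narrower. Both EPSCs covered 60.3% of the member bases, D-EPSCs alone 19.9% and L-EPSCs alone 19.8%. The logarithms of both widths had a Pearson r of 0.46 over the 7770 members, which is given as a description, because the peaks of a member must overlap or touch and a long peak meets another more easily. Most members (7607) were made of 1 peak from each EPSC, 160 held 3 peaks and 3 held 4.

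Most members were well away from the peaks that would have removed them. The nearest ESC H3K4me1 peak was at a median of 10.6 kb, and 5.32% of the members had such a peak within 1 kb, 32.6% within 5 kb and 48.7% within 10 kb. Only 2 members had an ESC peak within 10 bp, at 2 and 9 bp. Just outside the threshold, 4 unacetylated regions were dropped because an ESC peak overlapped their EPSC peaks by 3 to 10 bp. The nearest H3K27ac peak was at a median of 44.9 kb for the ESC list, 48.2 kb for that of D-EPSCs and 67.8 kb for that of L-EPSCs, and 3.98% of the members had H3K27ac of any list within 1 kb. H3K27ac of any list within 10 kb was present for 25.1% of the members, beside 63.6% of unacetylated ESC-only regions and 48.2% of unacetylated regions with H3K4me1 in all 3 states. Nearly as many members as not (3748, or 48.2%) had neither ESC H3K4me1 nor any H3K27ac within 10 kb, and these are called isolated. A gained region with acetylation lay within 10 kb of 157 members (2.02%), and no background was computed for this share.

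Most members had no other member within 10 kb, and whether this differs from random placement was not tested. A total of 1044 members (13.4%) had another member within 10 kb, in 490 groups, of which 9 held 4 or more members and the largest held 6.

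To ask where the members were placed, they were compared with the annotation of protein-coding genes and with 4 other sets of H3K4me1 regions. These were the 1298 gained regions with acetylation, 14729 unacetylated regions of ESCs only, 28926 unacetylated regions of all 3 states and all 124744 regions. The first base of a protein-coding gene lay inside 696 members (8.96%, 95% Wilson interval 8.34 to 9.61), compared with 4.55% (3.54 to 5.82) of gained acetylated regions, 0.462% (0.364 to 0.585) of ESC-only regions, 10.5% (10.1 to 10.8) of regions of all 3 states and 5.94% of all regions. These intervals, and those below, cover counting error only, and regions are no replicates of a culture condition. With start sites widened by 1 kb on either side the member share was 15.9%, against 21.2%, 1.20%, 23.9% and 15.5% in the same order. Neither difference from all regions was stable in size. The one within 1 kb, 0.41 points, lay between -1.12 (no H3K27ac within 1 kb) and 17.99 (widest 50% of each list) over the alternatives, and the one at the first base, 3.02 points, between 0.177 (peaks joined up to 1 kb apart) and 20.9 (widest 50% of each list). A further 14.3% of members touched an exon without a first base, 25.2% lay in introns and 51.5% lay outside protein-coding genes. In ESC-only regions introns took 50.0% and places outside genes 35.3%. The median distance of a member to a start site was 35878 bp, and 71.8% of the members were more than 10 kb from one.

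**Figure D1:**
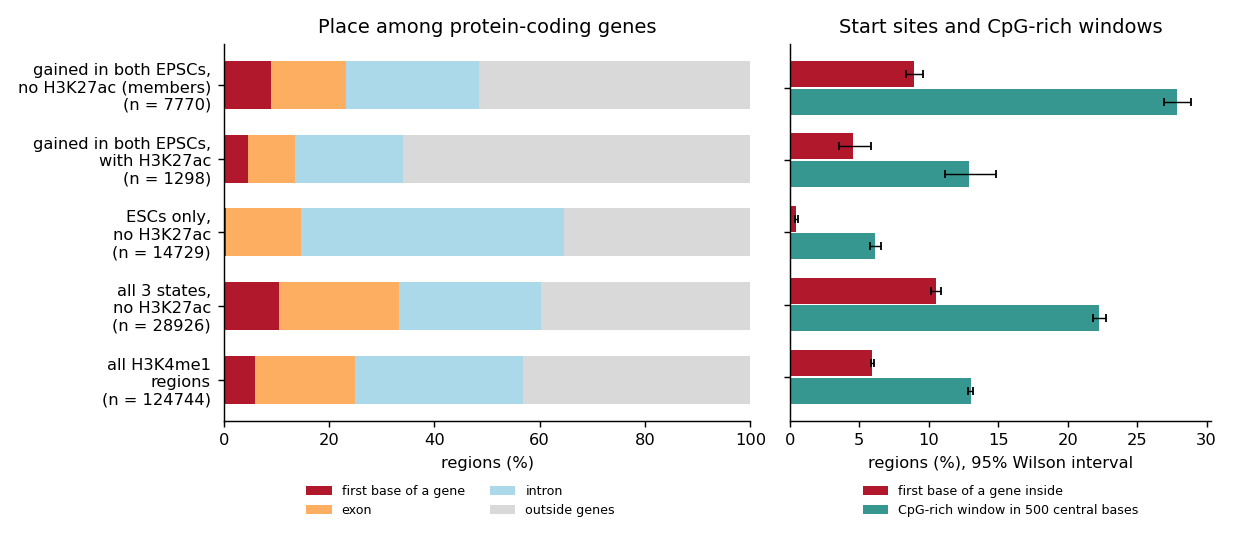
Place of H3K4me1 regions among protein-coding genes (left, stacked percent of regions in each of 5 sets) and percent of regions with the first base of a gene inside or with a CpG-rich window in the 500 central bases (right, bars with 95% Wilson intervals). Of the members, 8.96% held a first base and 27.9% a CpG-rich window, against 0.462% and 6.15% of unacetylated ESC-only regions.

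The members were richer in G, C and CpG than the other sets. Their median GC content was 48.7%, beside 44.8% in gained acetylated regions, 46.6% in ESC-only regions, 47.9% in regions of all 3 states and 46.8% in all regions. CpG frequency is given as observed over expected, the number of CpG relative to that expected from the C and G content, and mammalian DNA outside CpG islands has lost most of its CpG. Its median was 0.292 in members, 0.228 in gained acetylated regions, 0.210 in ESC-only regions and 0.278 in regions of all 3 states. A CpG-rich window, meaning 200 bases over 50% GC and over 0.6 observed to expected within the 500 central bases, was present in 27.9% of the members (26.9 to 28.9) and in 13% of all regions. The shares were 12.9% in gained acetylated regions, 6.15% in ESC-only regions and 22.3% in regions of all 3 states. In regions narrower than 500 bp the 500 central bases reached beyond the region. The windows were most frequent at start sites. Of the 696 members over a first base, 81.0% had a CpG-rich window and the median observed to expected ratio was 0.577. Of the 5579 members more than 10 kb from a start site, 20.1% had such a window and the median ratio was 0.260.

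**Figure D2:**
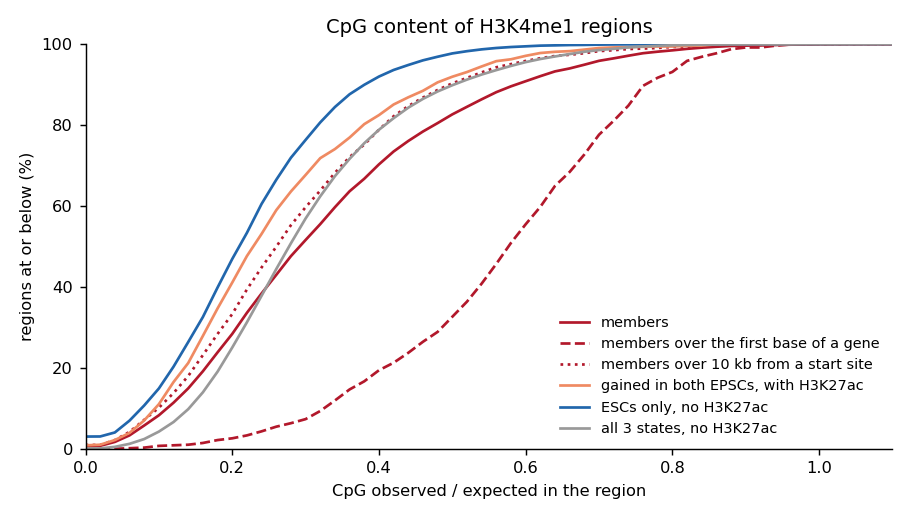
Cumulative percent of regions (vertical axis) at or below a given CpG observed to expected ratio (horizontal axis) for members, for members over a first base or over 10 kb from a start site, and for 3 other sets of regions. Members over a first base had a median ratio of 0.577, and members far from start sites one of 0.260, between ESC-only regions (0.210) and regions of all 3 states (0.278).

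At equal width, members kept the highest GC and the most CpG-rich windows of the unacetylated sets, but the order for start sites varied. Among unacetylated regions of 500 to 1000 bp, 11.99% of members, 1.13% of ESC-only regions and 16.5% of regions of all 3 states had a start site within 1 kb. CpG-rich windows were present in 24.4%, 6.54% and 15.9%, and median GC was 48.3%, 46.5% and 46.9%. Among regions of 2000 bp or more the start site shares were 32.5%, 3.23% and 34.0%. Among those of 1000 to 2000 bp they were 20.6%, 1.16% and 19.6%, and here members stood above regions of all 3 states. Acetylation did vary with width. Of regions gained in both EPSCs, 89.4% of those of 500 to 1000 bp had no H3K27ac and 55.3% of those of at least 2000 bp. For ESC-only regions these shares were 82.5% and 46.2%, and for regions of all 3 states 77.8% and 26.8%.

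Both EPSC peaks covered the first base of 566 protein-coding genes (2.53% of 22350), in 551 members. The number depended on the peaks kept, and was 860 with peaks of at least 500 bp and 1370 with the widest 50% of each list. Over annotated genes of every biotype this number was 692, with 39 lincRNA starts (3.06% of that biotype). ESC H3K4me1 was distant from most of these places. The members with a first base inside had their nearest ESC H3K4me1 peak at a median of 22.7 kb, and 82.2% had no ESC H3K4me1 within 5 kb on either side, while 14.8% had it on a single side and 3.02% on both. For members more than 10 kb from a start site these shares were 71.9%, 22.6% and 5.41%. Start site members were also wider, with a median of 1288 bp against 834 bp.

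The widest members are named here by the worse of their ranks for D-EPSC and L-EPSC peak width. The first was a region at chromosome 5, 37726375 to 37731346 (mm9), with peaks of 4972 bp (D-EPSC) and 4390 bp (L-EPSC). It covered the head-to-head start sites of Evc and Evc2, whose products act in Hedgehog signalling at the cilium. The nearest ESC H3K4me1 peak was 3930 bp away, and the nearest H3K27ac was 25586 bp away for D-EPSCs and 25829 bp away for L-EPSCs. The next was at chromosome 19, 59531996 to 59536937, over the start site of Emx2, a homeobox gene of the forebrain and urogenital system. Its peaks were 4942 bp and 3342 bp wide, 6603 bp from ESC H3K4me1, and the nearest H3K27ac was 111180 bp away for D-EPSCs and 111277 bp away for L-EPSCs. The third was at chromosome 12, 57633894 to 57637602, in an exon of Nkx2-1, a homeobox gene of forebrain, lung and thyroid, 293 bp from its start site. Its peaks were 3246 bp (D-EPSC) and 3709 bp (L-EPSC), the nearest ESC H3K4me1 was 11252 bp away, and the nearest H3K27ac of any list was 181323 bp away. The member in an intron of Prps2 (chromosome X, 163815973 to 163819465, peaks of 2998 and 3493 bp) was close to acetylation in D-EPSCs alone, with a peak 642 bp away, while the nearest ESC and L-EPSC H3K27ac peaks were 750091 and 756657 bp away. Sema5a, which encodes an axon guidance protein, had peaks of 2992 and 2853 bp over its start site (chromosome 15, 32173613 to 32176604). It was far from everything in the other lists, with ESC H3K4me1 at 237575 bp and the nearest H3K27ac of any list at 641209 bp.

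The others among the 10 widest lay over the start sites of Npr1 (a natriuretic peptide receptor; 2935 and 3302 bp in D-EPSCs and L-EPSCs), Fam20c (a kinase of secreted proteins; 2744 and 3270 bp) and Itpripl2 (2710 and 2673 bp), in an exon of Accn1 (an acid-sensing ion channel; 2937 and 2841 bp) and outside genes, 1520 bp from Dmrtb1 (3015 and 2836 bp). Among them Itpripl2 was nearest to acetylation, with a D-EPSC H3K27ac peak 2460 bp away.

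Isolated members with the widest peaks added Adamts1, Fgf12, Ndnf (A930038C07Rik in the annotation) and Snap25, all with both peaks over the start site. Adamts1, a secreted protease, had peaks of 2648 bp (D-EPSC) and 3522 bp (L-EPSC) and the nearest ESC H3K4me1 at 251036 bp. Fgf12, an intracellular relative of the fibroblast growth factors that binds sodium channels, had peaks of 2745 and 2454 bp. Snap25, a part of the complex that fuses synaptic vesicles, had peaks of 2780 and 2294 bp in a member of 50.1% GC. The remaining isolated members of this rank were in a Trpm3 intron (2645 and 2444 bp), over a Cacna1b exon (2534 and 2311 bp) and outside genes 361550 bp from the start of Pik3r1 (2377 and 3320 bp). The last was the poorest in CpG of all 19 named members, with an observed to expected ratio of 0.173. Of the 19, 12 had a start site under both peaks and 14 had a CpG-rich window, beside 551 and 2167 of all 7770 members, but 10 of the 19 were named because a start site lay under both peaks.

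**Figure D3:**
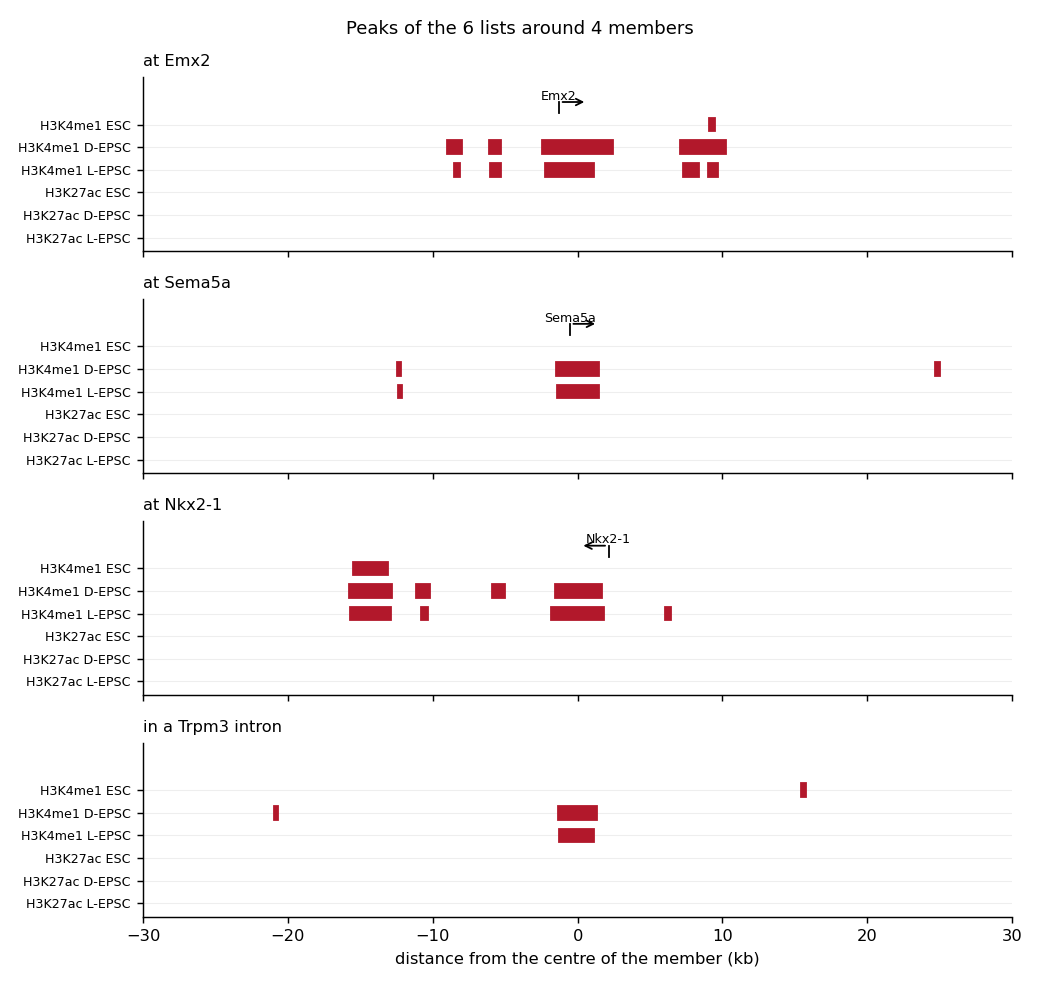
Peaks of the 3 H3K4me1 lists (red) and the 3 H3K27ac lists (blue, none present) within 30 kb of the centre of 4 members, with distance in kb on the horizontal axis and arrows at protein-coding start sites. In each panel D-EPSCs and L-EPSCs have a wide peak at 0 and ESCs have none, and the nearest ESC peak is 6603 bp away at Emx2, 11252 bp at Nkx2-1, 14097 bp at Trpm3 and out of the window at Sema5a.

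Families of genes were counted by gene symbol among the 566 start sites. They were chosen after the covered genes had been seen, so the shares below are descriptions and their excess over 2.53% follows in part from the choice. Of 94 gene models of potassium channel subunits and interacting proteins, 15 (16.0%) had the first base under both peaks of a member. Kcnc1, a fast delayed rectifier, had peaks of 2556 bp (D-EPSC) and 2476 bp (L-EPSC), and Kcnq5 had 2302 and 2097 bp. Of 45 GABA and glutamate receptor subunits 10 (22.2%) did, among them Gabra2 with 1377 and 1469 bp and Grm7 with 1240 and 1179 bp. The nearest ESC H3K4me1 peak was 197849 bp from the Gabra2 member and 138599 bp from that of Grm7. Of 20 calcium and sodium channel alpha subunits 3 did, Cacna1b and Cacna1i among them, and of 21 TRP channels 4 did. Slc32a1, the vesicular transporter of GABA, had 2489 and 1775 bp.

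Semaphorins, which guide axons and migrating cells, had 4 of 20 start sites under a member (Sema3a, Sema3c, Sema5a and Sema6d), ADAMTS proteases 5 of 19 and CXC chemokines 4 of 12 (Cxcl1, Cxcl3, Cxcl5 and Cxcl14). Cxcl14 had the widest peaks of these chemokines, 2280 bp (D-EPSC) and 1980 bp (L-EPSC). Protocadherins had 2 of 36 and keratins 2 of 46. Transcription factor families of development (Fox, Sox, Pax, Pou and others) had 6 of 143 start sites under a member, or 4.196%, but 45 of the 143 (31.5%) had a member within 10 kb. The background of that second count is 18.6%, the share of all protein-coding genes with a member in the gene or within 10 kb.

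A few single genes are added, which were picked after their values had been seen and stand for no group. Boll, an RNA-binding protein of spermatogenesis, had peaks of 1746 bp (D-EPSC) and 2137 bp (L-EPSC) over its start site. Zar1, a maternal factor of the oocyte, had 1177 and 1125 bp, and Ddx4, a helicase of germ cells, had 643 and 648 bp. ESC H3K4me1 was 9688 bp from the Boll member, 19452 bp from that of Zar1 and 7400 bp from that of Ddx4, all closer than the median of 22.7 kb for members over a first base.

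Lists of genes with known roles in early cell fate were then examined, each gene widened by 10 kb, against the background of 18.6%. Of 22 core and naive pluripotency factors 2 had a member (9.09%), or 3.22 members per Mb of these loci beside 3.81 per Mb over all protein-coding genes. Esrrb, a nuclear receptor of the naive network, had a member of 1038 bp in an intron and one of 1052 bp outside the gene, with ESC H3K4me1 at 1902 and 2325 bp. Nr5a2 had one of 914 bp, 5969 bp from ESC H3K4me1. None of the 6 two-cell genes found had a member, and the LIF pathway had 1 of 8 (Lifr, 804 bp). No gene of these 3 lists had its first base covered by both EPSC peaks.

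Genes of the formative epiblast had a member at 4 of 19 (21.1%, 4.26 members per Mb). At Dnmt3a, the de novo DNA methyltransferase, 1 member lay 1944 bp from the start (D-EPSC peak 1483 bp, L-EPSC peak 1657 bp) and another lay outside the gene. An intron of Lef1 carried a member of 2289 bp, Grhl2 one of 543 bp, and Sox3 a member of 1876 bp that held the start site without both peaks covering it. Of the gastrulation genes only Mixl1, a homeobox gene of the primitive streak, had a member (1 of 15), and both its peaks (1277 and 1703 bp) covered the start site, 22284 bp from ESC H3K4me1.

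Extraembryonic genes are of interest because EPSCs are studied for their contribution to extraembryonic lineages. Of 19 trophoblast genes 5 had a member (26.3%, 6.53 per Mb). Esx1, an X-linked placental homeobox gene, had 3, of which the widest (D-EPSC peak 2417 bp, L-EPSC peak 1507 bp) held the start site without both peaks covering it. Elf5 had a member of 906 bp in an intron 4776 bp from its start, and Plet1 one of 479 bp. The Krt7 member of 693 bp lay outside the gene, 27405 bp from its start, and held the first base of another gene. Fgfr2 had 18 of the 24 members of the list, but its annotated span makes the locus 3029 kb long, and per 100 kb it held 0.594. Members were assigned to Fgfr2 by this span alone, whether or not other genes lie inside it. The Fgfr2 members were unevenly spread, 192549 to 2992054 bp from the annotated start. A run of them lay between 137322330 and 137413270 on chromosome 7, and the next began at 137997192. Of 16 primitive endoderm genes 5 had a member (31.3%), and per Mb their loci held 3.65, near the 3.81 over all genes. They lay 403 bp from the start of Fst (1728 bp wide), 1231 bp from that of Foxa2 (1184 bp), 6058 bp from that of Gata6 (1032 bp), 6557 bp from that of Gata4 (670 bp) and in an intron of Dab2 (718 bp). None of the genes in these lineage lists had the start site under both peaks.

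Of 14 genes of the neural ectoderm found, 4 had a member (28.6%), and the loci of the list held 15.4 members per Mb, beside 3.81 over all protein-coding genes. Pax3, a factor of the neural crest and dorsal neural tube, had 3, with widths of 3584 bp over the start site, 2387 bp and 2805 bp. The D-EPSC peaks at Pax3 (3584, 2387 and 2805 bp) were wider than the L-EPSC peaks (1212, 1333 and 324 bp). Lhx2 had 2 members, and Zic1 had 1 of 1469 bp.

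The list of retinoic acid genes (receptors, enzymes, binding proteins, Stra6 and Stra8) had the highest share of all lists. Of its 16 genes 7 (43.8%) had a member, with 13 members in all, or 10.5 per Mb. Stra6, the cellular retinol transporter, had 4, of which the widest had peaks of 2931 bp (D-EPSC) and 2483 bp (L-EPSC) over an exon 70250 bp from the annotated start. Rarb, a receptor, had 4 of 832 to 1277 bp within its long gene. Cyp26b1, which degrades retinoic acid, had 1 of 1976 bp, and Stra8, Rdh10 and Rxrg had 1 each. That of Stra8 lay outside the gene, 28139 bp from its start, and touched an exon of another gene. No start site of the list was covered by both peaks.

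In the other signalling lists, Wnt genes had 4 of 18 (Lef1, Lgr5, Wnt5a and Wnt8a) and FGF and ERK genes 3 of 22 (Fgfr2, Spred1 and Spred2). Hox clusters had 7 of 40 gene models (17.5%), which shared only 3 members, of 751 to 1186 bp. Fibroblast markers had 3 of 15 (20.0%; Col6a2, Twist1 and Col1a2), and no fibroblast start site was covered by both peaks. Of 76 cytoplasmic ribosomal protein genes 6 had a member within 10 kb (7.89%) and none a start site covered by both peaks, and the widest members were at the X-linked genes Rps4x (2652 bp), Rpl39 (2525 bp) and Rpl10 (2129 bp), 229 to 1320 bp from H3K27ac. Of 1087 olfactory receptors 25 had a member (2.3%). These percentages rest on few genes, and longer loci have more room for members.

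**Figure D4:**
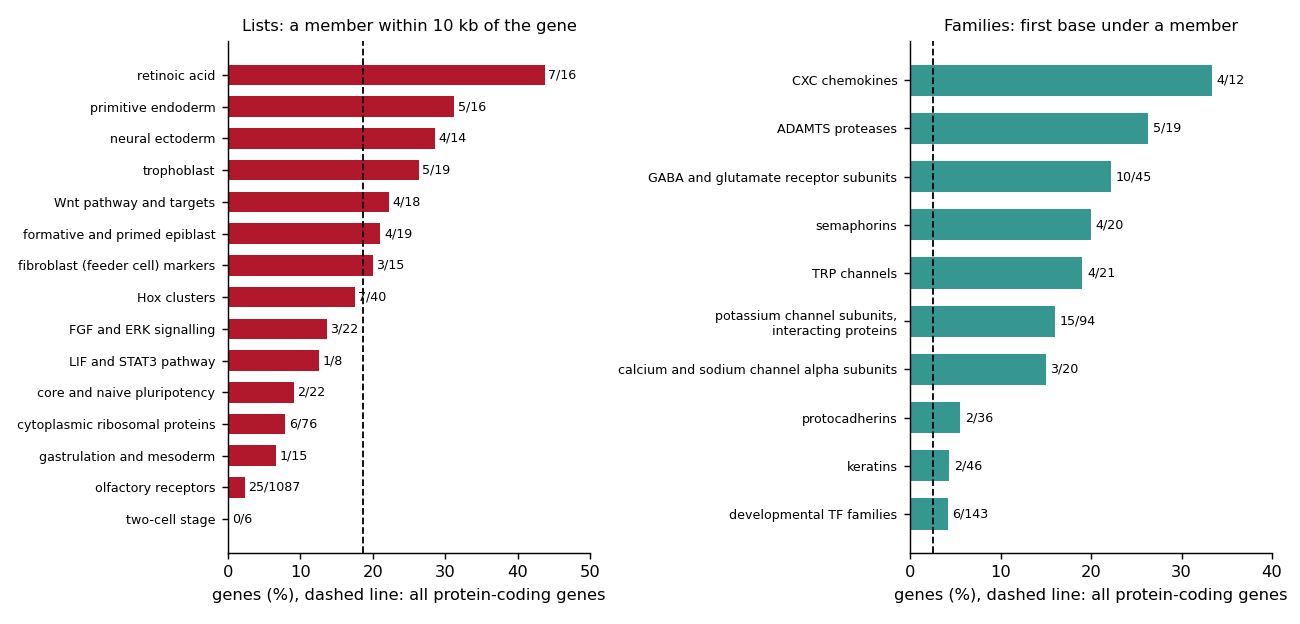
Percent of genes with a member in the gene or within 10 kb for 15 lists (left) and percent with the first base under both EPSC peaks of a member for 10 families by symbol (right), with counts at the bars and dashed lines at the values for all protein-coding genes, 18.6% and 2.53%. Retinoic acid genes had the highest share on the left and CXC chemokines on the right, where the families were chosen after their genes had been seen.

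By gene, the largest numbers of members lay in long loci. Gm20388, a model that spans 4455 kb with its margins, held 33, Fgfr2 18, Grip1 16, Arfip1 12, Pcdha11 and Trio 10 each, Enox1 and Sox5 9 each, and Tmcc3 and Prkcb 8 each. Per 100 kb, and among genes with at least 4 members, Intu, Rims4, Cacna1h, Usp25, Pear1, Zeb2, Lrrc1, Stra6 and Pcdha11 were among the 10 densest, with 3.61 to 5.08. Of these Zeb2, a repressor of epithelial genes, held 6 members with the widest at 3424 bp, and Intu and Rims4 had the start site under both peaks.

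Chromosome X held 348 members, 4.48% (4.04 to 4.96) against 1.94% of all H3K4me1 regions. With the widest 50% of each list it held 2.79% of the members, and the difference from all regions fell from 2.54 to 1.32 points. Per 100 H3K4me1 regions it held 14.4 members (13.1 to 15.9), whereas chromosomes 1 to 19 ranged from 4.36 on chromosome 11 to 7.16 on chromosome 1. Unacetylated ESC-only regions numbered 11.8 per 100 on chromosome X and 10.3 to 14.0 on the others, so members exceeded ESC-only regions on chromosome X alone, with a ratio of 1.23 beside 0.335 to 0.659. Gained acetylated regions also had their highest rate there, 3.48 per 100, against 0.589 to 1.41. Per Mb of sequence, however, chromosome X held 2.09 members, fewer than any other chromosome (2.48 to 3.49), and its H3K4me1 regions of any kind numbered 2417.

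The members of chromosome X were placed differently from those of other chromosomes. A start site lay within 1 kb of 44.3% (39.1 to 49.5), against 5.16% to 18.4% on chromosomes 1 to 19. Over all H3K4me1 regions the share was also highest on chromosome X, with 23.1% beside 11.9% to 20.5%. Of the members on chromosome X, 11.5% held the first base itself. The 114 members beside a first base on chromosome X had ESC H3K4me1 at a median of 12.7 kb, while the 428 of chromosomes 1 to 19 had it at 1.70 kb. H3K27ac of any list was within 2500 bp of 35 (30.7%) and 135 (31.5%) of these, respectively. Coverage of first bases by the lists themselves was low on chromosome X, at 1.07% for the ESC list, 6.87% for D-EPSCs and 9.33% for L-EPSCs, while chromosomes 1 to 19 had 7.74% to 16.3%, 20.99% to 31.9% and 25.3% to 38.8%. The part that lower peak coverage on chromosome X plays in these values was not tested.

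Chromosome 8 lay at the opposite end. Only 5.16% of its 388 members (3.36 to 7.83) had a start site within 1 kb, and 12 held a first base. The share of all H3K4me1 regions on chromosome 8 with a start site within 1 kb was 14.3%, inside the range of the other chromosomes. ESC H3K4me1 covered 16.3% of the first bases of chromosome 8, the highest value of any chromosome, and D-EPSCs covered 31.8%. With only the widest 50% of each list, the start site share of chromosome 8 members was lower than that of all members on chromosomes 1 to 19 by 0.769 percentage points, compared with 9.45 with the full lists.

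**Figure D5:**
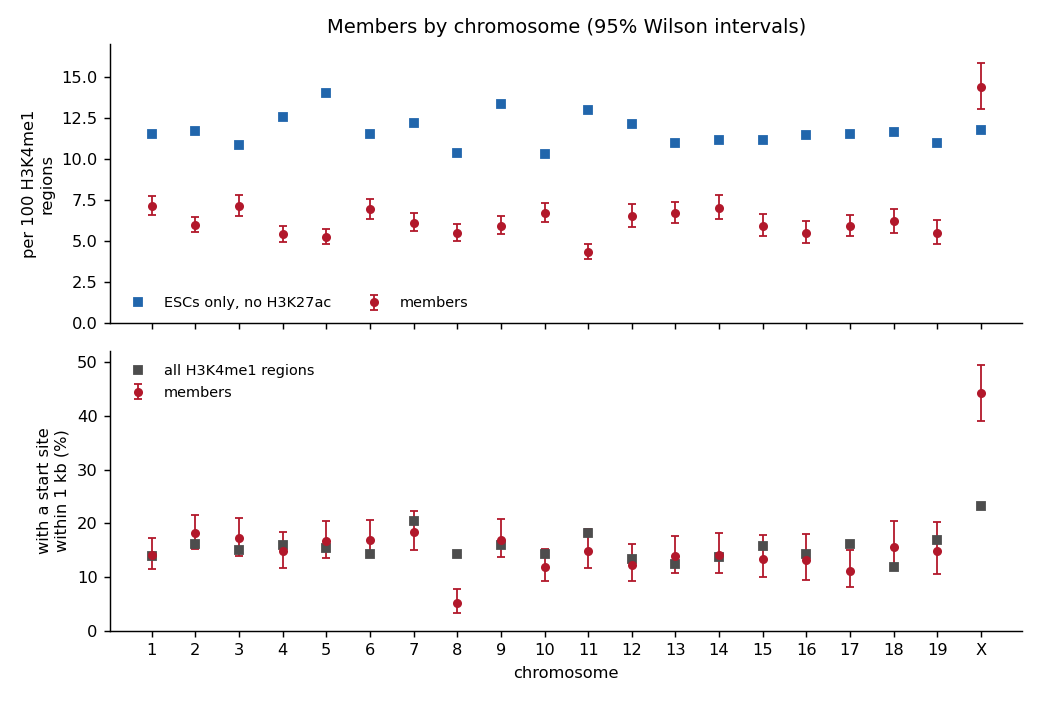
Members per 100 H3K4me1 regions (upper) and percent of members with a protein-coding start site within 1 kb (lower) for each chromosome, with 95% Wilson intervals, beside unacetylated ESC-only regions and all H3K4me1 regions. Chromosome X stands highest in both (14.4 per 100 and 44.3%), and chromosome 8 lowest in the lower panel (5.16%).

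Finally, short words bound by known factors were searched on both strands of the 500 central bases. In regions narrower than 500 bp these bases reached beyond the region. With or without H3K27ac, 7009 of 18129 ESC-only regions and 1076 of the 9068 regions gained in both EPSCs were that narrow. A word is no proof of binding, words of G and C are more frequent in GC-rich sequence, and the shares of all 124744 regions are given beside those of members. GCCNNNGGC, bound by Tfap2 factors, was in 19.3% of the members and 13.3% of all regions. In the other sets it was in 13.9% of gained acetylated regions, 10.2% of ESC-only regions and 15.7% of regions of all 3 states. It was in 39.8% of the members over a first base and in 16.1% of those more than 10 kb from a start site. CAGCTG, an E-box of basic helix-loop-helix factors, was in 30.4% of members and 25.6% of all regions, and here members over a first base (32.5%) and far from start sites (30.2%) were alike. CCCCTCCCC, an element of Zfp281, was in 8.93% against 7.14%, and GCGCATGCG, bound by Nrf1, in 0.438% against 0.268%. For both words the unacetylated regions of all 3 states, with 8.715% and 0.363%, lay inside the member intervals (8.32 to 9.59 and 0.313 to 0.611). ESC-only regions had 5.87% and 0.183%. These 4 words were less frequent in members than in all regions when whole regions were searched, where members are the narrower.

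Words of factors of the naive network and of Wnt signalling went the other way. TCAAGGTCA, the site of Esrrb and Nr5a2, was in 1.98% of the members (1.70 to 2.32), 3.29% of ESC-only regions and 2.66% of all regions. ATCAAAG, bound by Tcf and Lef factors, was in 6.59%, 9.97% and 8.16%, and GGGTGTGG, bound by Klf factors, in 7.05%, 10.1% and 8.28%. Unacetylated regions of all 3 states had the Esrrb word in 2.25%, inside the member interval, ATCAAAG in 7.94% and GGGTGTGG in 8.43%. Gained acetylated regions had them in 1.31%, 8.01% and 3.47%, so low shares of the Esrrb and Klf words were not particular to members. Little separated the members from all regions for ATGCAAAT of POU factors (4.08% and 4.04%), ACAATGG of Sox factors (7.53% and 7.94%), ACATTCC of Tead factors (7.32% and 7.52%), AGATAAG of Gata factors (5.51% and 6.04%) and TGANTCA of Ap-1 (14.1% and 14.7%). The direct repeat of AGGTCA at a spacing of 5 bases, a retinoic acid response element, was in 0.0515% and 0.0729%, and that at a spacing of 1 base in 0.0901% and 0.159%. GGTCTACA, a word of the B1 short interspersed repeat that was added after words had been compared between the sets, was in 2.43% of the members, 8.74% of ESC-only regions, 4.57% of regions of all 3 states and 6.48% of all regions.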

How the data were processed

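H3K4me1 and H3K27ac ChIP-seq was performed in ESCs, D-EPSCs and L-EPSCs (2 samples per mark and state, 1 input per state). According to the methods of the study, the authors aligned paired-end reads to mm9 with bowtie2 (version 2.3.5 in the submitters' processing notes) and called broad peaks against input with MACS. The deposited files give 1 list of peak positions per state and mark, with no count, score or signal, so read depth is unknown and no test over samples could be made. Whether samples were pooled before calling, and the thresholds used, are not given in the sources used here. Both set list length, which for ESCs, D-EPSCs and L-EPSCs was 107222, 102751 and 105306 with H3K4me1 and 64342, 32782 and 26966 with H3K27ac.

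Groups followed the sample labels. Peaks were merged and classed as described in the report. No peak passed a chromosome end of NCBIM37. Gene models were GENCODE M1 (22350 protein-coding genes, start site at the annotated 5′ end of the gene), and current symbols were matched through RefSeq names for 21455 of them. GC, CpG and words were read from the genome, which was not masked for repeats. Named regions were the 10 members with the widest peaks (worse rank of both EPSCs), the 10 widest isolated members and the 10 widest with a first base under both peaks. Named genes were the 10 with most members, the 10 with most members per 100 kb and genes of lists with a member (at most 6 per list). Members, lists and rules were chosen with earlier results of these data known, and the families by symbol and the B1 word after values had been seen. Symbols that matched a family pattern but encode something else (such as Foxred and Gatad genes) were left out. Alternatives changed the joining of peaks, the distance to ESC H3K4me1 and H3K27ac, the overlap of EPSC peaks, peak width, list length and chromosomes. Settings of peak width and of equal list length applied to all 6 lists, so they also removed peaks that exclude members. The merging code was tested on simulated lists. Python 3.11.15, numpy 2.4.6 and matplotlib 3.10.9 were used. Some genes that these rules would name are not reported here.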

Additional observations from a re-analysis of the deposited data

How the results depend on the processing

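The values describe 1 list per state and mark, so counting intervals were the only measure of error, and the unknown read depth limits them. No paired analysis was possible because each group has 1 list of positions and the replicate numbers of the samples are not in it. The number of members ranged from 4871 (widest 50% of each list) to 8653 over the alternatives. With peaks joined up to 1 kb apart, members were 87.57% of the gained regions, 13.72% had a start site within 1 kb and 0% ESC H3K4me1 within 1 kb, 57.8% of their bases lay under both EPSCs and the median width was 883 bp. With no ESC peak allowed within 1 kb, members were 81.13% of gained regions. With no H3K27ac within 1 kb they were 82.28%, with 14.41% at start sites, 4.771% near ESC H3K4me1, 3.86% on chromosome X and 48.88% GC. With EPSC peaks overlapping by 50% of both, the same values were 61.66% of gained regions, 18.03% at start sites, 3.989% on chromosome X and 49.22% GC, with 72.08% of bases under both and a width of 822 bp. With peaks of at least 500 bp, 24.32% were at start sites, 4.755% near ESC H3K4me1 and 3.646% on chromosome X, with 49.26% GC, 68.48% of bases under both and a width of 1115 bp. With the widest 50% of each list members were 79.97% of gained regions, with 40.22% at start sites, 3.367% near ESC H3K4me1, 2.792% on chromosome X, 50.53% GC, 75.9% of bases under both and a width of 1811 bp. Lists of equal length gave 88.73%, 17.12% at start sites and 877 bp, and a shortened ESC H3K27ac list gave 88.01%, which by construction can only be above the 85.69% of the full list. The start site share was 14.61% on chromosomes 1 to 19, 13.72% within 500 bp, 18.2% within 2500 bp and 18.33% over every biotype. ESC H3K4me1 lay within 500 bp of 1.3% and within 5 kb of 32.56%, and GC of the 500 central bases was 49.2%. The share of members with a start site within 1 kb minus that of all regions (0.4085 points) became -0.9714 with joined peaks, -1.116 without H3K27ac within 1 kb and -0.7691 on chromosomes 1 to 19, but 2.504 with EPSC peaks overlapping by 50%, 6.469 with peaks of at least 500 bp and 17.99 with the widest 50%, and the cause was not tested. Over whole regions instead of 500 bases, the difference in word shares turned to -5.53 points for Zfp281, -4.83 for Tfap2, -0.1681 for Nrf1 and -8.8 for the E-box, where members are narrower than all regions and hold fewer bases to search. The count of first bases over every biotype and the split of members by start site were chosen after seeing the data.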
